A study of Mus musculus with 15 samples.

Results

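The interleukin-1 (IL-1), IL-18 and IL-33 family was followed in bulk RNA-seq of whole mouse lung after bleomycin. Its members were the 10 genes of the count table whose symbols are Il1a, Il1b, Il1rn, Il1r1, Il1r2, Il1rl1, Il1rap, Il18, Il18r1 and Il33, of 33340 genes in all, and all 10 passed the filter on low counts that left 17457 genes for testing. Symbols were assigned to the deposited Ensembl identifiers from the GENCODE M21 annotation.

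The mice were C57BL/6 per the labels, and males of 10 to 12 weeks per the bleomycin model in the methods of the study. They were given intratracheal bleomycin at 5 U/kg, a DNA-damaging agent used to provoke lung injury and fibrosis. Polyadenylated RNA was sequenced in 15 libraries, 4 at day 0 without injury, 4 at day 7, 4 at day 14 and 3 at day 21. These numbers follow the sample titles, while the design text of the series gives 3 replicates at each time point, and no source used here resolves the difference. The title of day 0 replicate 4 calls it a control and its treatment label says bleomycin. By its title it stayed in day 0. No source says whether a library came from 1 mouse or from several, so the p-values measure the spread between these libraries. Every comparison with day 0 uses the same day 0 libraries.

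Total counts lay between 15652008 and 18020661 per library. The share of counts from mitochondrial genes was 2.03 to 2.15% in all 4 day 7 libraries and in day 14 replicate 1 it was 2.1%, while the other libraries of days 14 and 21 held 2.66 to 4.14%. Day 0 held both kinds, with 2.28 and 2.31% in replicates 1 and 2 and 4.22 and 4.04% in replicates 3 and 4. Markers of alveolar type 2 cells, airway epithelium and endothelium were detected in every library. Markers of cardiac muscle and of fat, which are not lung parenchyma, varied between libraries from 11.8 to 664 and from 0.228 to 127 summed CPM (read counts scaled by the TMM-adjusted library size).

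IL-1α and IL-1β are cytokines that act through the receptor IL-1R1 together with the accessory protein IL-1RAP, and they start NF-κB signalling through MyD88. IL-1RN is a natural antagonist that occupies IL-1R1 without signalling, and IL-1R2 is a decoy receptor that binds IL-1 and does not signal. IL-33 is an alarmin kept in the nucleus of epithelial and stromal cells, released on injury and sensed by ST2, the product of Il1rl1, on type 2 innate lymphoid cells, mast cells and regulatory T cells. IL-18, like IL-1β, is made as a precursor that inflammasome caspases cut, and it acts through IL-18R1 on NK and T cells.

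In build GRCm38, 4 of the receptor genes lie on the plus strand of chromosome 1 within a run of 6 related receptor genes that spans 478 kb. Il1r2 (ENSMUSG00000026073) occupies chr1:40074079-40125231, Il1r1 (ENSMUSG00000026072) chr1:40225080-40317257, Il1rl1 (ENSMUSG00000026069) chr1:40429570-40465415 and Il18r1 (ENSMUSG00000026070) chr1:40465552-40500854. Il1rl1 and Il18r1 are separated by only 136 bases. On chromosome 2, Il1a (ENSMUSG00000027399, chr2:129299610-129309972) and Il1b (ENSMUSG00000027398, chr2:129364570-129371139) lie on the minus strand 54597 bases apart, and the antagonist gene Il1rn (ENSMUSG00000026981, chr2:24336853-24351494) lies on the plus strand far from them. Il18 (ENSMUSG00000039217) is at chr9:50554827-50581840, Il1rap (ENSMUSG00000022514) at chr16:26581704-26730117 and Il33 (ENSMUSG00000024810) at chr19:29925114-29960718, all on the plus strand.

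Whether reads of antisense partners entered the counts of a member cannot be told, because the strand setting of the counting is not given in the sources used here. Exons of Il1a overlap those of Gm14023 over 222 bases, those of Il1b overlap Il1bos over 25 and those of Il1rap overlap Gm20319 over 552. The 3 partners had at most 16 counts in any library. Gene-level counts also merge isoforms, so membrane-bound and soluble ST2 are counted together in Il1rl1.

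Promoter windows of 300 bases from RefSeq (GRCm38.p6), from 250 bases before to 50 after an annotated transcript start, were found for 10 of 10 members, as 17 windows. Both strands were searched for TATAAA (a core promoter box), GGANNNTCC (an NF-κB-like core), TGANTCA (AP-1-like) and TTGCNNAA (C/EBP-like), which 13.6%, 8.62%, 7.81% and 10.8% of all 32851 windows hold. At least 1 of these matched in 9 of the 10 members, the exception being Il1rap. The shares above are per window and per motif. No share of genes with any match was computed, so the count of members has no background beside it. For members that changed against day 0, the upstream parts that hold a match are printed, without bases annotated as exon and with matches in capitals. The windows of Il18r1 are left out because they overlap exons, and the further windows of Il1rn and Il1r1 because no match lies in their upstream part. Positions count back from -1, the base before the RefSeq start.
Il1b, chr2:129371140-129371389, minus strand, TATAAA from -31 to -26: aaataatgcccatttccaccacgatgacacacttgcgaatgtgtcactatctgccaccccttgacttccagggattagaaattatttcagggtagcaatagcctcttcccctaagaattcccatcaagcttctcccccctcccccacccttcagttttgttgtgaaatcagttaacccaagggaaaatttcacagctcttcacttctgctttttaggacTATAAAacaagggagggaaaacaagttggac
Il1rn, first window, chr2:24336610-24336852, plus strand, TGANTCA from -141 to -135: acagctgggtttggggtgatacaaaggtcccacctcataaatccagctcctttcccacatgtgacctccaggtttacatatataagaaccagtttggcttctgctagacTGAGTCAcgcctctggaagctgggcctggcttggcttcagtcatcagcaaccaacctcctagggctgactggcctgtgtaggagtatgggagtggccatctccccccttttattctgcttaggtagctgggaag
Il1r1, first window, chr1:40224830-40225079, plus strand, TTGCNNAA from -133 to -126: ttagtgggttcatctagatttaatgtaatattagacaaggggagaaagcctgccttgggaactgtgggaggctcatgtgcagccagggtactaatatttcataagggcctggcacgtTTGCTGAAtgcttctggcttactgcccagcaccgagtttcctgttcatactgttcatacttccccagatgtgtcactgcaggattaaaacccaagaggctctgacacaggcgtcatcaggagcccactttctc
Il33, first window, chr19:29924863-29925112, plus strand, TATAAA from -203 to -198: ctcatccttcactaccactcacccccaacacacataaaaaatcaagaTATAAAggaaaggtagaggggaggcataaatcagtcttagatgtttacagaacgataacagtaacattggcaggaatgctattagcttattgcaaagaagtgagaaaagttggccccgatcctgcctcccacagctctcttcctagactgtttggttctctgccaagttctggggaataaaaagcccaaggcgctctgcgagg
Il33, second window, chr19:29945540-29945789, plus strand, TTGCNNAA from -85 to -78 and TATAAA from -29 to -24: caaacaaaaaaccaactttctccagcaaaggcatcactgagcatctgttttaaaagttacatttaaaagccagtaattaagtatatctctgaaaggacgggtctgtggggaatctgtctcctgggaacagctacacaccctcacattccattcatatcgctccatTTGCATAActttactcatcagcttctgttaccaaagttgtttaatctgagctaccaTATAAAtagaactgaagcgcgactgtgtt

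In the printed windows Il1b, which fell, and the second start of Il33 each have the TATAAA match close to the start. Il1rn has this motif only after the start in window 3, on the other strand, from 14 to 19. Il1a, the neighbour of Il1b that did not pass the test, has a TATAAA match from -32 to -27 and an AP-1-like match from -12 to -6. A match describes letters in the sequence and is not a bound site.

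To ask how the family changed through injury, each day was compared with day 0. To be called, a gene needed a Benjamini-Hochberg adjusted p below 0.05, over all 17457 genes, together with at least a 1.5-fold difference. At day 7, Il1r1 rose and Il1b fell. At day 14, Il1r1, Il1rn and Il18r1 rose and Il1b fell. At day 21, Il1r1 and Il1rn rose and Il1b and Il33 fell. Il1a, Il1r2, Il1rl1, Il1rap and Il18 passed the test on none of the 3 days.

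The counts of called members were set against the share of all genes tested. At day 7, 1 of 10 members was called higher, against 8.78% of all genes, and 1 lower, against 7.36%. At day 14, 3 were called higher, against 12.0%, and 1 lower, against 11.2%. At day 21, 2 were called higher, against 12.4%, and 2 lower, against 10.1%. None of these shares was tested against the background. The median log2 fold change of the members was 0.34, 0.30 and 0.02 on the 3 days, beside 0.01, 0.02 and 0.02 over all genes tested.

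**Figure D1:**
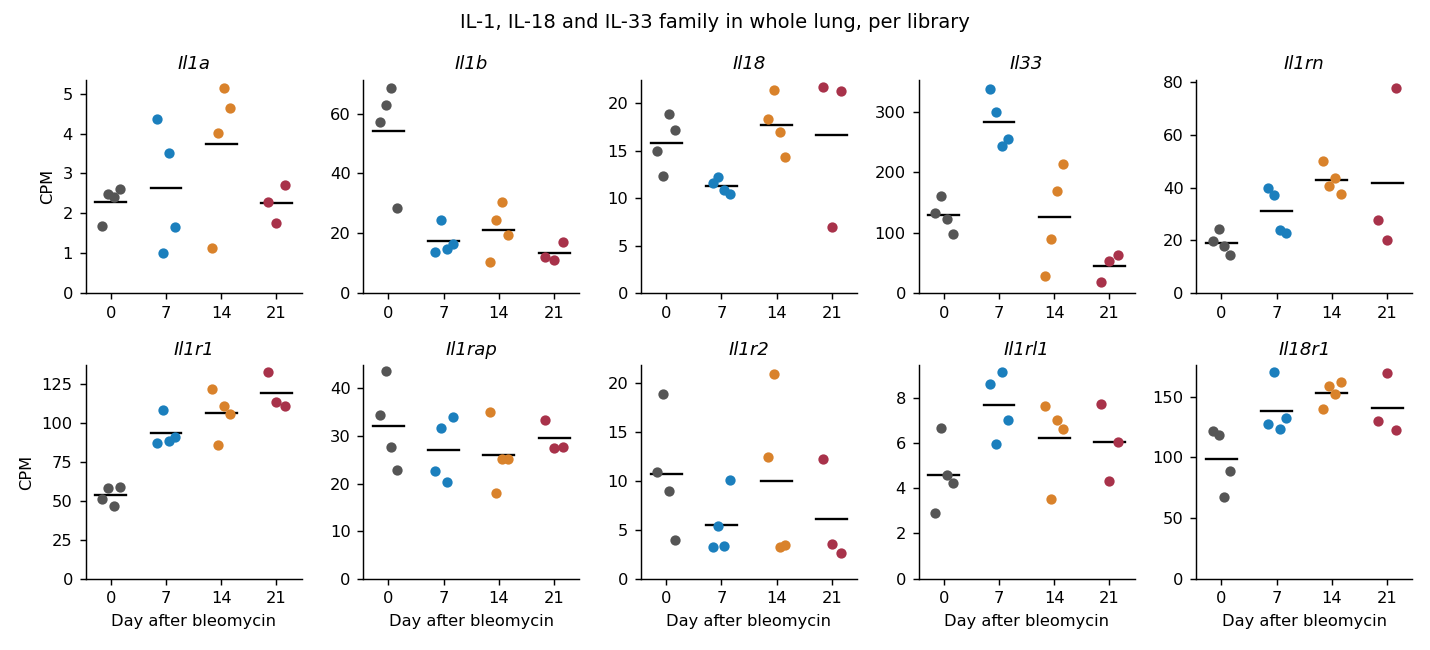
Expression of each member in CPM (linear axis from 0) in the 15 libraries by day, with the bar at the mean of the day. Il1r1 lies above every day 0 library at all later days, Il1b lies low after day 0, and Il33 is high at day 7 and low at day 21.

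The cytokine genes came first. Il1b, which encodes the inflammasome-dependent cytokine IL-1β, stood at 57.4, 63.0, 68.4 and 28.5 CPM in the day 0 libraries. It was at 13.6, 24.5, 14.8 and 16.5 CPM at day 7, at 10.4, 24.6, 30.5 and 19.5 CPM at day 14 and at 12, 10.9 and 17.2 CPM at day 21. All libraries of days 7 and 21 lay below every day 0 library, while day 14 replicate 3 lay slightly above day 0 replicate 4, the lowest of its group.

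The mean of Il1b went from 54.3 ± 17.8 CPM (SD, n = 4) at day 0 to 17.3 ± 4.90 (n = 4) at day 7, 21.2 ± 8.50 (n = 4) at day 14 and 13.4 ± 3.37 (n = 3) at day 21. The log2 fold change was -1.65 ± 0.31 (SE) at day 7, with an adjusted p of 0.00197 by edgeR's quasi-likelihood test. It was -1.35 ± 0.31 at day 14 (adjusted p = 0.00373, edgeR) and -2.02 ± 0.35 at day 21 (adjusted p = 0.000637, edgeR). The day 14 call was lost among the 5 libraries of days 0 and 14 with a mitochondrial share over 3.5%, at -0.97 (adjusted p = 0.0819, edgeR). Day 0 replicate 4, the library with the conflicting label, was the lowest of the controls, and Il1b remained called on all 3 days without it. The 3 later days did not differ from each other past the test.

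Neutrophil markers moved in the same direction as Il1b. Of 8 markers (S100a8, S100a9, Retnlg, Cxcr2, Ly6g, Mmp8, Csf3r and Camp), 4 were lower at day 7, 2 at day 14 and 5 at day 21, and none was higher. Their summed level was 409 to 922 CPM at day 0, 98.2 to 277 at day 7, 137 to 524 at day 14 and 91.2 to 181 at day 21, with no marker at 0 in all libraries of a day. Day 0 replicate 4 had the lowest sum of its group and also the lowest Il1b. Fewer cells of a type and less RNA per cell cannot be told apart in bulk RNA, and the part of neutrophils in the fall of Il1b was not tested.

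**Figure D2:**
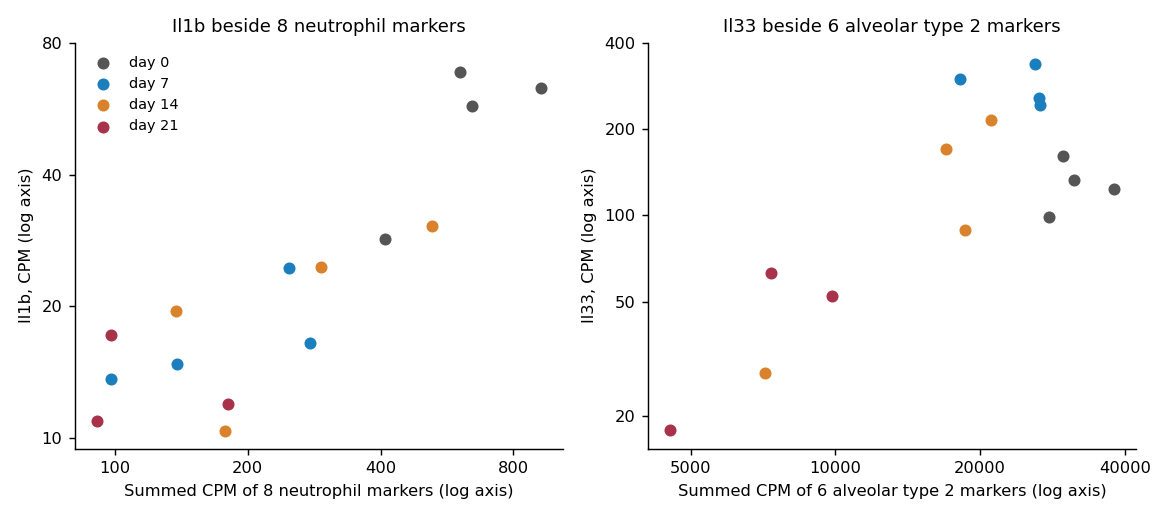
Left, Il1b in CPM against the summed CPM of 8 neutrophil markers. Right, Il33 against the summed CPM of 6 alveolar type 2 cell markers, both on log axes with 1 point per library coloured by day. Day 0 replicates 1 to 3 hold the highest Il1b and the highest neutrophil sums, while day 0 replicate 4 lies below day 14 replicate 3 in both. The day 7 libraries hold more Il33 than day 0 libraries at type 2 sums that are no higher.

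Il1a, the gene of the membrane-bound and alarmin-like IL-1α, had 18 to 90 counts per library. It was at 1.68 to 2.62 CPM at day 0, 1.0 to 4.36 at day 7, 1.12 to 5.14 at day 14 and 1.76 to 2.70 at day 21. The day 7 and day 14 libraries lay on both sides of the day 0 range. Its log2 fold changes of 0.20 ± 0.45, 0.70 ± 0.45 and -0.03 ± 0.49 (SE) did not pass the test (adjusted p = 0.784, 0.252 and 0.969, edgeR).

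Il33, which encodes the epithelial and stromal alarmin, stood at 133, 161, 123 and 98.4 CPM at day 0 and at 338, 299, 244 and 256 CPM at day 7. At day 14 it was at 28.1, 89.1, 170 and 215 CPM, and at day 21 at 17.8, 52.5 and 62.8 CPM. All day 7 libraries lay above, and all day 21 libraries below, the whole day 0 range, and the day 14 libraries scattered over both sides of it. The mean went from 129 ± 26.0 (SD, n = 4) through 284 ± 43.0 (n = 4) and 125 ± 83.1 (n = 4) to 44.4 ± 23.6 CPM (n = 3).

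The 2.21-fold higher mean of Il33 at day 7 (log2 fold change 1.14 ± 0.45 SE) missed the threshold, with an adjusted p of 0.0766 by edgeR. It was called without the filter on low counts, when only the libraries of days 0 and 7 were fitted, and among libraries with a mitochondrial share under 2.5%. At day 14 the log2 fold change was -0.04 ± 0.45 (adjusted p = 0.958, edgeR). At day 21 Il33 fell by 1.54 ± 0.51 on the log2 scale (adjusted p = 0.0324, edgeR), a call lost without day 0 replicate 1 or 2 or day 21 replicate 1 or 2, with adjusted p from 0.0515 to 0.108. Between day 7 and day 21, Il33 fell by 2.68 ± 0.53 on the log2 scale (adjusted p = 0.00702, edgeR), to 0.156 of the day 7 mean and in 3 of 3 libraries.

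Alveolar type 2 cell markers also fell by day 21. Of 6 markers (Sftpc, Sftpb, Sftpa1, Lamp3, Abca3 and Slc34a2), none was called at day 7, 4 were lower at day 14 and 6 at day 21. The summed level was 27880 to 37960 CPM at day 0, 18210 to 26700 at day 7, 7132 to 21040 at day 14 and 4542 to 9843 at day 21. Day 14 replicate 1, the library with the lowest Il33 of its group, also had the lowest type 2 sum, at 7132 CPM, and the highest fibroblast marker sum, at 12990 CPM. The high Il33 of day 7 stood beside type 2 sums that were all below the lowest day 0 sum. Of 4 airway epithelial markers (Scgb1a1, Scgb3a2, Foxj1 and Krt5) 3 were tested, with 1 lower at day 7, 3 at day 14 and 1 at day 21, and none higher, and Krt5 was at 0 counts in every day 0 library. The airway sum was 25170 to 32020 CPM at day 0, 8713 to 11230 at day 7, 2806 to 7010 at day 14 and 1434 to 5430 at day 21. The part of either epithelial cell type in the values of Il33 was not tested.

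Il18, the gene of the precursor of IL-18, stood at 14.9, 12.3, 18.9 and 17.2 CPM at day 0, at 11.6, 12.3, 10.9 and 10.5 CPM at day 7, at 18.4, 21.3, 17.0 and 14.3 CPM at day 14 and at 21.7, 7.00 and 21.3 CPM at day 21. The day 7 libraries lay just below the day 0 range, the day 14 libraries overlapped it, and the day 21 libraries split to both sides of it. The log2 fold changes of -0.49 ± 0.26, 0.16 ± 0.26 and 0.07 ± 0.28 (SE) did not pass the test (adjusted p = 0.188, 0.668 and 0.871, edgeR).

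Il1rn, the receptor antagonist, stood at 19.7, 24.5, 18 and 14.5 CPM at day 0. It was at 39.9, 37.3, 24.0 and 22.9 CPM at day 7, at 50.1, 40.8, 43.5 and 37.6 CPM at day 14 and at 27.7, 20.3 and 77.9 CPM at day 21. All day 14 libraries exceeded every day 0 library, while at day 7 and at day 21 the groups overlapped and day 21 replicate 3 stood far above its group.

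The mean of Il1rn was 19.2 ± 4.13 CPM (SD, n = 4) at day 0, 31.0 ± 8.83 (n = 4) at day 7, 43.0 ± 5.30 (n = 4) at day 14 and 41.9 ± 31.3 (n = 3) at day 21. The log2 fold change of 0.69 ± 0.33 (SE) at day 7 did not pass (adjusted p = 0.132, edgeR), but Il1rn was called there when only the libraries of days 0 and 7 were fitted, at 0.67 (adjusted p = 0.0307, edgeR). Il1rn rose by 1.16 ± 0.33 at day 14 (adjusted p = 0.0132, edgeR) and by 1.13 ± 0.35 at day 21 (adjusted p = 0.0233, edgeR). The day 21 call rested on replicate 3, without which the log2 fold change was 0.28 (adjusted p = 0.447, edgeR), and it was also lost without day 0 replicate 1, 3 or 4 (adjusted p 0.0509 to 0.0711).

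Markers of monocyte-derived macrophages rose too, also at day 7, when Il1rn was not called. Of 8 markers (C1qa, C1qb, C1qc, Ms4a7, Ccr2, Trem2, Gpnmb and Spp1), 7 were higher on each of the 3 days and none was lower. Their summed level was 201 to 315 CPM at day 0, 1005 to 1782 at day 7, 2122 to 5764 at day 14 and 2151 to 5459 at day 21, with no marker at 0 in all libraries of a day. Day 21 replicate 3, which held the most Il1rn, had a sum of 4994 CPM, below the 5459 CPM of replicate 1, which held 27.7 CPM of Il1rn. Of 6 alveolar macrophage markers (Chil3, Marco, Siglecf, Krt79, Fabp1 and Plet1), 2 were lower at day 7, 1 was higher and 2 lower at day 14, and 3 were lower at day 21. Their summed level was 672 to 983 CPM at day 0, 454 to 1179 at day 7, 832 to 3324 at day 14 and 1108 to 2348 at day 21. The part of either kind of macrophage in the rise of Il1rn was not tested.

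The ratio of antagonist to cytokine reads was therefore described in every library. Il1rn had 0.344, 0.388, 0.263 and 0.510 reads per read of Il1b at day 0. It had 2.93, 1.52, 1.62 and 1.39 at day 7, 4.82, 1.66, 1.43 and 1.92 at day 14, and 2.31, 1.85 and 4.52 at day 21. All 11 later libraries exceeded all day 0 libraries, and Il1b reads outnumbered Il1rn reads in all 4 libraries of day 0 only. The ratio is within a library, so library size does not enter it, but it is not corrected for gene length.

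**Figure D3:**
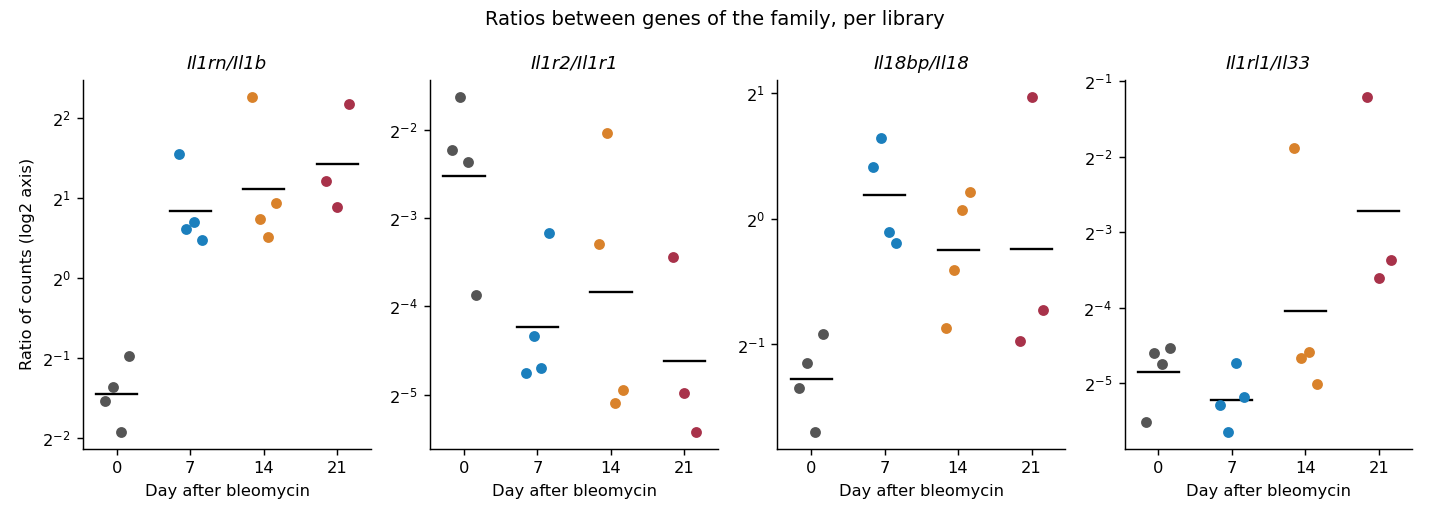
Ratio of read counts per library (log2 axis) for antagonist over cytokine (Il1rn/Il1b), decoy over signalling receptor (Il1r2/Il1r1), binding protein over cytokine (Il18bp/Il18) and receptor over ligand (Il1rl1/Il33), with bars at the mean log2 ratio. Il1rn/Il1b lies at 0.263 to 0.510 at day 0 and at 1.39 to 4.82 after it, while the other ratios overlap between day 0 and at least 1 later day.

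Among the receptors, Il1r1, the signalling receptor for IL-1α and IL-1β, had the smallest standard errors of the family. It stood at 51.0, 58.2, 46.4 and 58.7 CPM at day 0, at 86.9, 108, 88.0 and 91.1 CPM at day 7, at 122, 86.1, 111 and 106 CPM at day 14 and at 133, 113 and 111 CPM at day 21. Every later library exceeded every day 0 library.

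The mean of Il1r1 was 53.6 ± 5.96 CPM (SD, n = 4) at day 0, 93.5 ± 9.78 (n = 4) at day 7, 106 ± 14.9 (n = 4) at day 14 and 119 ± 11.8 (n = 3) at day 21. The mean rose 1.74-fold, 1.98-fold and 2.22-fold, with log2 fold changes of 0.80 ± 0.12, 0.99 ± 0.12 and 1.15 ± 0.13 (SE). The adjusted p-values were 0.000388, 3.05e-05 and 1.82e-05 (edgeR). Between days 7 and 21 it was higher by 0.35 ± 0.13 on the log2 scale, with no overlap of libraries, and this did not pass (adjusted p = 0.0836, edgeR).

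Fibroblast markers rose on the same days. Of 6 markers (Col1a1, Col1a2, Col3a1, Pdgfra, Tcf21 and Lum), 4 were higher on each day, and 1 was lower at days 14 and 21. The summed level was 1243 to 1818 CPM at day 0, 4720 to 5928 at day 7, 3507 to 12990 at day 14 and 4681 to 9227 at day 21, with no marker at 0 in all libraries of a day. Of 6 endothelial markers, 2, 3 and 1 were lower at days 7, 14 and 21, and none was higher. The part of either cell type in the rise of Il1r1 was not tested.

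Il1r2, the decoy receptor, varied more between libraries of a day than between days. It ranged from 4.01 to 18.9 CPM at day 0, from 3.23 to 10.1 at day 7, from 3.26 to 20.9 at day 14 and from 2.59 to 12.2 at day 21. The log2 fold changes of -0.95 ± 0.64, -0.10 ± 0.63 and -0.80 ± 0.70 (SE) had the widest standard errors of the family and did not pass (adjusted p = 0.293, 0.923 and 0.418, edgeR). Among libraries with a mitochondrial share under 2.5%, Il1r2 was called lower at day 7, at -1.45 (adjusted p = 0.0454, edgeR). Day 0 replicate 4 had the lowest Il1r2 of its group, as it had for Il1b and the neutrophil sum. There were 0.0683 to 0.324 reads of Il1r2 per read of Il1r1 at day 0 and 0.0233 to 0.0923 at day 21, ranges that overlap.

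Il1rap, the accessory chain shared by the IL-1 and IL-33 receptors, ranged from 22.9 to 43.6 CPM at day 0, from 20.3 to 33.9 at day 7, from 18 to 35.1 at day 14 and from 27.6 to 33.3 at day 21, and the ranges overlapped throughout. Its log2 fold changes of -0.24 ± 0.22, -0.31 ± 0.22 and -0.12 ± 0.24 (SE) did not pass (adjusted p = 0.45, 0.309 and 0.745, edgeR).

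Il1rl1, which encodes the IL-33 receptor ST2, stood at 2.91, 6.65, 4.57 and 4.24 CPM at day 0 and at 8.60, 5.97, 9.11 and 7.01 CPM at day 7. It ranged from 3.5 to 7.61 CPM at day 14 and from 4.33 to 7.72 at day 21. At day 7, 3 of 4 libraries exceeded every day 0 library, and the later days overlapped day 0. The log2 fold changes of 0.74 ± 0.28, 0.43 ± 0.28 and 0.39 ± 0.30 (SE) did not pass (adjusted p = 0.066, 0.259 and 0.358, edgeR). At day 7 it was called by DESeq2, with its own size factors, and by edgeR without day 0 replicate 2.

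Reads of the receptor were also set against those of its ligand. Il1rl1 had 0.0220 to 0.0430 reads per read of Il33 at day 0 and 0.0199 to 0.0374 at day 7. It had 0.0309 to 0.271 at day 14 and 0.0823 to 0.434 at day 21, when Il33 was low. Of the cells known to use ST2, type 2 innate lymphoid cells were followed by 6 markers (Gata3, Il13, Il5, Il17rb, Klrg1 and Rora), of which 4 were tested. None was called at day 7, 1 was lower at day 14 and 1 at day 21, and none was higher. Their summed level was 84.3 to 94.2 CPM at day 0 and 42.3 to 70.9 CPM on the later days. The cytokines Il5 and Il13, which such cells secrete, had at most 5 counts in any library. The part of these cells in the values of Il1rl1 was not tested. The 7 mast cell and basophil markers summed to 2.01 to 8.29 CPM in all libraries.

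Il18r1, the ligand-binding chain of the IL-18 receptor, stood at 122, 119, 67.4 and 88.4 CPM at day 0. It was at 127, 171, 123 and 132 CPM at day 7, at 139, 159, 152 and 162 CPM at day 14 and at 130, 169 and 123 CPM at day 21. Every later library exceeded every day 0 library, at days 7 and 21 by a narrow margin over day 0 replicate 1.

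The log2 fold change of Il18r1 was 0.48 ± 0.17 (SE) at day 7 (adjusted p = 0.0501, edgeR), and 0.63 ± 0.17 at day 14 (adjusted p = 0.0108, edgeR), where it rose. At day 21 it was 0.51 ± 0.18, past the p threshold (adjusted p = 0.0479, edgeR) but under the fold threshold. Without day 0 replicate 1 it was called at day 21, at 0.586 (adjusted p = 0.0361, edgeR). The day 14 call was lost without day 0 replicate 3, at 0.46, or replicate 4, at 0.56, the libraries with the lowest Il18r1, in both cases by the fold threshold. At day 0, Il18r1 was at 122 and 119 CPM in the libraries with the lower mitochondrial share and at 67.4 and 88.4 CPM in those with the higher. Among libraries with a share under 2.5% its day 7 value was 0.19, and among those over 3.5% its day 14 value was 1.0, still called. Of 6 markers of NK cells, a known site of the IL-18 receptor, none was called at day 7, and 6 were lower at days 14 and 21. Their summed level was 27.9 to 82.7 CPM at day 0, 15.6 to 35.6 at day 7, 4.90 to 20.2 at day 14 and 3.53 to 11.2 at day 21. Of 6 T cell markers, 2 were lower at day 14 and none was higher on any day. The part of either cell type in the values of Il18r1 was not tested.

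**Figure D4:**
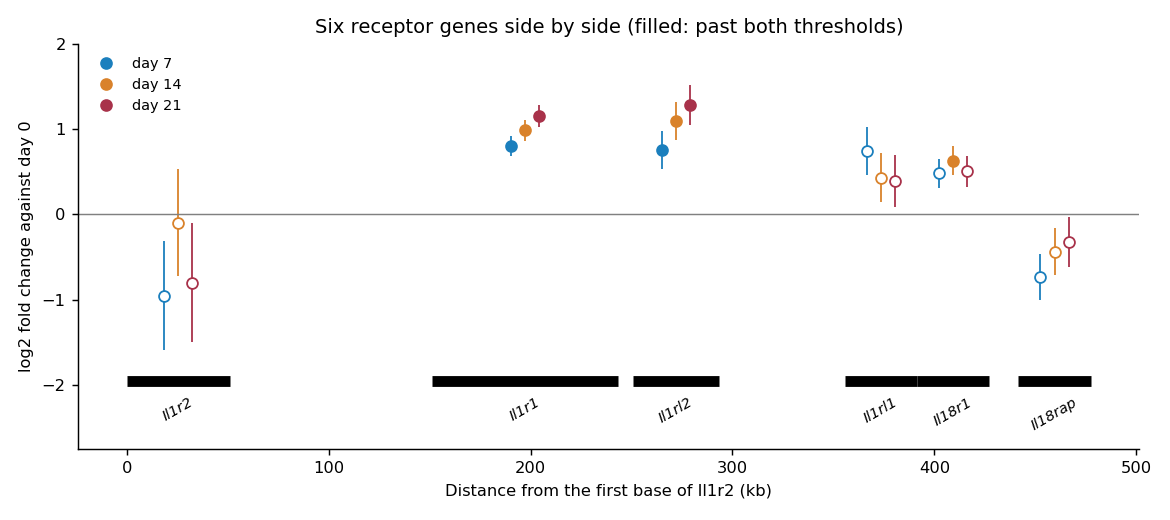
The 6 receptor genes of the chromosome 1 run, drawn to scale as bars by distance from the first base of Il1r2 in kb, with each gene's log2 fold change against day 0 (points, with SE) at days 7, 14 and 21. Il1r1 and its neighbour Il1rl2 have filled points above 0 on all 3 days, Il18r1 a filled point at day 14, and Il1r2, Il1rl1 and Il18rap none.

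The neighbours of the members in this chromosome 1 run were tested in the same fit. Il1rl2, the IL-36 receptor gene, which starts 7352 bases beyond Il1r1, rose with it by 0.76 ± 0.22, 1.10 ± 0.22 and 1.28 ± 0.24 on the log2 scale (SE, adjusted p = 0.0224, 0.00168 and 0.000925, edgeR). The day 7 call of Il1rl2 was lost under 5 of 20 alternatives, with the mitochondrial share as a covariate, against a fold change of 1.5 (glmTreat), and without day 0 replicate 1 or 2 or day 7 replicate 1, and its values ran from 0.61 to 1.13. Its day 14 value was 0.55 and not called among libraries with a mitochondrial share over 3.5%. Il18rap, which encodes the chain that IL-18R1 needs to signal, had log2 fold changes of -0.74 ± 0.27, -0.44 ± 0.27 and -0.32 ± 0.29, opposite in sign to those of Il18r1, and none passed.

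**Figure D5:**
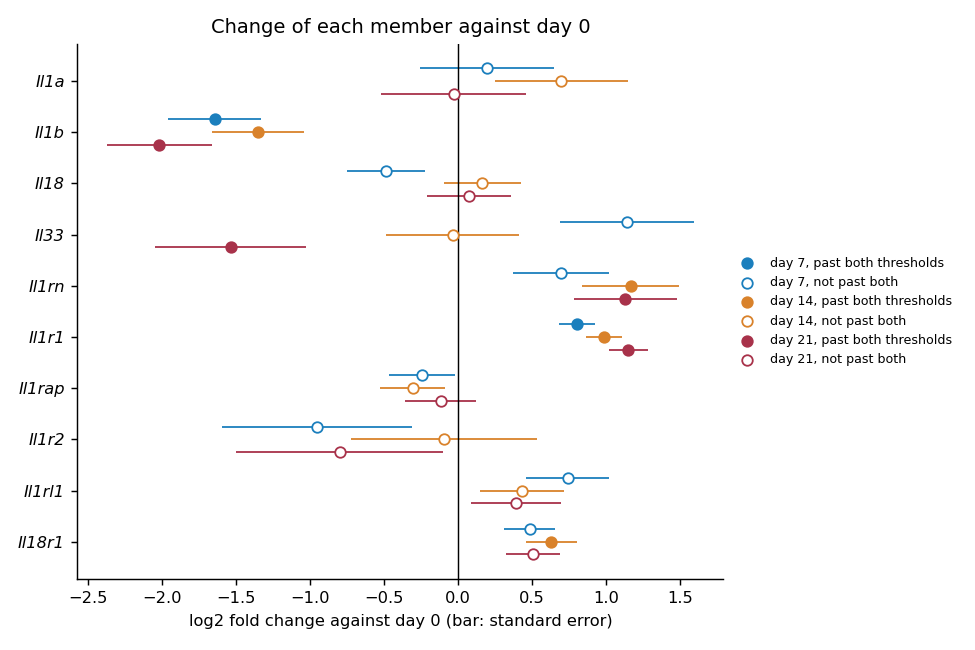
Log2 fold change of each member against day 0 at days 7, 14 and 21, with SE as bars and filled points where both the adjusted p and the fold threshold were passed. The filled points are Il1b on the left and Il1r1 on the right at all 3 days, Il1rn at days 14 and 21, Il18r1 at day 14 and Il33 on the left at day 21.

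Complete separation of the libraries was also counted. The day 7 and day 0 libraries did not overlap for 5 of 10 members (Il1b, Il1r1, Il18, Il18r1 and Il33), against 30.8% of all genes tested. At day 14 this held for 3 of 10 (Il1rn, Il1r1 and Il18r1), against 31.1%, and at day 21 for 4 of 10 (Il1b, Il1r1, Il18r1 and Il33), against 35.5%.

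Between the later days few differences passed. None of the members was called between days 14 and 7, against 6.00% of all genes in either direction. By DESeq2 the count was also 0, against 9.38% of all genes. Il18 and Il33 had an unadjusted p under 0.05 by edgeR. Il33 was the only member called lower at day 21 than at day 7, against 4.34% of all genes. Between days 21 and 14 no member was called by edgeR or DESeq2, while edgeR called 0% and DESeq2 0.607% of all genes. Of the members only Il33 had an unadjusted p under 0.05 there, with a log2 fold change of -1.50 ± 0.51 (SE, adjusted p = 0.381, edgeR). Without day 14 replicate 1, Il33 was called in that comparison (adjusted p = 0.0394, edgeR).

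To compare the members with each other, levels were expressed per length, as RPKM over the union of annotated exons. At day 0 the order was Il33 (44.7), Il1b (28.5), Il18r1 (20.6), Il18 (15.4), Il1r1 (8.42), Il1r2 (5.60), Il1rn (3.47), Il1rap (2.83), Il1a (1.16) and Il1rl1 (0.666 RPKM). Neighbours in this order overlapped between libraries except at the steps from Il18 to Il1r1 and from Il1rap to Il1a. The union counts exons of all isoforms, so genes with many annotated isoforms such as Il1rap read low on this scale.

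The order changed with injury. Il1b went from rank 2 at day 0 to rank 5 at day 7, where it had 9.10 RPKM, and to rank 6 at day 21, at 7.01 RPKM. Il33 led clearly at day 7, at 98.5 RPKM with no overlap with Il18r1 at 28.7 RPKM, and by day 21 stood at rank 4, at 15.4 RPKM, overlapping Il18 at 16.2. At day 21 Il18r1 was first, at 29.2 RPKM, with no overlap with Il1r1 at 18.7 RPKM. By its mean Il1rl1 was the lowest on all 4 days, with libraries that overlapped those of Il1a.

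For each member that changed against day 0, the genes with the most similar pattern of log2 CPM over the 15 libraries were listed. These correlations describe libraries that share groups and scaling. Il1b was most like Csf3r, the receptor for the neutrophil growth factor G-CSF (r = 0.957), and Lilra6 (r = 0.928), and after removal of the day means the values were 0.838 and 0.828. Il1r1 was most like Fbn1, which encodes the microfibril protein fibrillin-1 (r = 0.975), and Adamts2, a procollagen-processing protease (r = 0.974), with 0.748 and 0.756 within days.

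Il1rn was most like Gnpda1, an enzyme of amino sugar metabolism (r = 0.945), and F10, coagulation factor X (r = 0.917). Il33 was most like Abcd3, a peroxisomal transporter (r = 0.959), and Acsl5, a fatty acid activating enzyme (r = 0.957). Il18r1 was most like Atp6v0a4, a subunit of the vacuolar proton pump (r = 0.938), and Rai14 (r = 0.936). For these 3 members the values within days were 0.861 to 0.942.

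Further genes of the pathway were taken from lists of other ligands, receptors and inhibitors, processing and release, receptor signalling, and downstream targets. Of 55 genes listed, 45 were tested. At day 7, 5 were higher and 2 lower, at day 14, 8 and 3, and at day 21, 8 and 2, beside 8.78, 12.0 and 12.4% of all genes called higher and 7.36, 11.2 and 10.1% called lower. The median log2 fold changes were 0.04, 0.14 and 0.22, beside 0.01, 0.02 and 0.02 over all genes tested. Il36b was not analysed here, and 9 genes had too few counts, among them Il36a, Il36rn, Csf3, Il5, Il13 and Ifng.

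Of the other ligands, Il36g, an epithelial IL-36 cytokine annotated as Il1f9, was the only gene tested and fell on all 3 days. It had 11.6 ± 8.10 CPM (SD, n = 4) at day 0 and 3.44 ± 0.77, 3.40 ± 0.34 and 2.15 ± 0.23 CPM on the later days, with log2 fold changes of -1.76 ± 0.37, -1.78 ± 0.37 and -2.44 ± 0.42 (SE, adjusted p = 0.00338, 0.00184 and 0.000602, edgeR). At day 0 it ranged from 4.96 to 23.0 CPM, above all later libraries. Among libraries with a mitochondrial share over 3.5% its day 14 value was -0.75 and was not called. The airway epithelial sums, given above beside Il33, were below all day 0 sums on the later days, and their part was not tested.

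Of the other receptors and inhibitors, 2 of 4 tested were higher on each day, and none was lower. These were Il1rl2, given above, and Il18bp, the secreted protein that neutralises IL-18. Il18bp had 6.60 ± 1.70 CPM (SD, n = 4) at day 0 and 13.4 ± 4.68, 15.1 ± 3.47 and 12.6 ± 1.36 CPM later, with log2 fold changes of 1.02 ± 0.25, 1.19 ± 0.25 and 0.92 ± 0.27 (SE, adjusted p = 0.00863, 0.00202 and 0.0162, edgeR). The day 21 call of Il18bp was lost under 5 of 18 alternatives, with glmTreat and without day 0 replicate 1 or 2 or day 21 replicate 2 or 3, with values from 0.81 to 1.09. The ratio of Il18bp to Il18 reads was 0.309 to 0.531 at day 0, 0.875 to 1.56 at day 7, 0.547 to 1.16 at day 14 and 0.508 to 1.96 at day 21, above day 0 in all libraries of days 7 and 14. Il1rn and Il18bp, which encode secreted inhibitors, were thus both called higher at day 14, while Il36rn, a further antagonist gene, was not tested.

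Of 13 genes of processing and release, 1 was lower at day 7, and 3 were higher and 1 lower at days 14 and 21. Mefv, the gene of the inflammasome sensor pyrin, fell by 1.18 ± 0.26, 1.64 ± 0.27 and 1.80 ± 0.30 on the log2 scale (SE), from 6.00 CPM at day 0 to 1.71 CPM at day 21. Pycard, the inflammasome adaptor ASC, rose by 1.10 ± 0.26 at day 14 and by 1.10 ± 0.28 at day 21, and Nlrp1b, another sensor, by 1.52 ± 0.30 and 1.21 ± 0.32. Ninj1, which ruptures the membrane of dying cells, rose by 0.88 ± 0.15 and 1.10 ± 0.16. Adjusted p-values of these calls ran from 0.000182 to 0.00932 (edgeR). The day 21 call of Pycard was lost without day 21 replicate 3 and with glmTreat, with values from 0.81 to 1.26, and glmTreat also lost the calls of Mefv at day 7, Pycard and Ninj1 at day 14 and Nlrp1b at day 21.

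Of 18 genes of receptor signalling, none was called at days 7 and 21 and 1 was lower at day 14. That gene was Nfkbia, the NF-κB inhibitor that NF-κB itself induces, which fell by 0.69 ± 0.18 on the log2 scale (SE, adjusted p = 0.00949, edgeR) from 163 ± 44.6 (SD, n = 4) to 101 ± 4.72 CPM (n = 4). The call of Nfkbia was lost under 2 of 20 alternatives, with glmTreat and without day 0 replicate 3, with values from -0.98 to -0.58. The median log2 fold changes of the 18 genes were 0.03, 0.05 and 0.09.

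Of the downstream cytokines and targets, 9 were tested, and 3 were higher on each day. Saa3, an acute phase protein, rose from 2.03 ± 1.20 CPM (SD, n = 4) at day 0 to 53.4 ± 29.4, 45.1 ± 24.2 and 104 ± 43.4 CPM, with log2 fold changes of 4.72 ± 0.54, 4.48 ± 0.53 and 5.67 ± 0.56 (SE, adjusted p = 4.87e-05, 2.13e-05 and 7.86e-06, edgeR). Lcn2, the iron-scavenging protein lipocalin 2, rose by 2.44 ± 0.27, 2.16 ± 0.27 and 1.21 ± 0.28 on the log2 scale. Il6 rose by 3.08 ± 0.64 at day 14 and 2.23 ± 0.67 at day 21, from 0.509 CPM at day 0 to 4.45 and 2.47 CPM. Its day 21 call was lost under 5 of 18 alternatives, with glmTreat and without day 0 replicate 1, 2 or 3 or day 21 replicate 1, with values from 1.83 to 3.35. The neutrophil chemokine gene Cxcl1 rose at day 7, by 1.41 ± 0.45 (adjusted p = 0.0335, edgeR), and it was not called at days 14 and 21 or between the later days. The call of Cxcl1 was lost under 6 of 20 alternatives, with the mitochondrial share as a covariate, with glmTreat, and without day 0 replicate 1, 2 or 3 or day 7 replicate 2, with values from 0.87 to 1.89. Saa3 and Lcn2 thus rose on days on which Il1b fell.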

How the data were processed

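Total RNA of whole mouse lungs was sequenced after polyA selection. The authors aligned the reads with HISAT2 2.1.0 to GRCm38 and deposited raw counts per Ensembl gene from HTSeq 0.6.0, without normalization. The annotation release and strand setting are not given in the sources used here. Symbols and exon lengths came from GENCODE M21 (33267 of 33340 genes matched) and older symbols through RefSeq synonyms.

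Groups came from the sample titles. All 15 libraries, with 15652008 to 18020661 counts, entered 1 fit in edgeR 4.0.16 (R 4.3.3) with filterByExpr, TMM factors, day as the only term, glmQLFit and glmQLFTest, and p-values were adjusted by Benjamini-Hochberg over 17457 genes. The common biological coefficient of variation was 22.8%. The thresholds for a call, an adjusted p of 0.05 and a fold change of 1.5, follow the study. Log2 CPM used a prior count of 2, and ratios raw counts. No pair of libraries of a day agreed within sampling noise.

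The members, gene lists and marker lists were chosen with earlier results of these data known. Named were the members, listed pathway genes changed against day 0 (at most 5 per list) and, for each changed member, the 2 genes with the highest Pearson r, without predicted genes and immunoglobulin or T cell receptor segments. Levels, ratios, correlations and motifs were not tested. Alternatives were DESeq2 1.42.0, limma 3.58.1 voom, other scaling, filters and thresholds, a replicate block, the mitochondrial share as a covariate or in sets of libraries, only the 2 groups compared, and leaving out each library. The tests were checked on simulated data.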

Additional observations from a re-analysis of the deposited data

Results flagged for a closer look

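Il33 was singled out because its differences from day 0 at day 7 and at day 21 differed from each other when that difference was tested. Its log2 fold change against day 0 was 1.14 at day 7, which did not pass the test, and -1.54 at day 21, which did. The difference between them, day 21 against day 7, was -2.68 ± 0.53 (SE, adjusted p = 0.00702, Benjamini-Hochberg adjusted edgeR test), lower in 3 of 3 libraries, and it was called under 18 of 18 alternatives, with values from -3.04 to -2.32. The alveolar type 2 cell marker sum was 18210 to 26700 CPM at day 7 and 4542 to 9843 CPM at day 21, and its part in the difference was not tested. Each member was also examined for a library that stood apart from the other 3 in its group of 4, which chance gives in about 5% of groups, and none was found in 30 groups. The day 21 groups of 3 libraries were not part of this check. Among them, Il1rn had 77.9 CPM in replicate 3 beside 27.7 and 20.3 CPM.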

How the results depend on the processing

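The counts of called members (2, 4 and 4 at days 7, 14 and 21 against day 0) became 1, 2 and 2 with glmTreat at a fold change of 1.5, while the share of all genes called in either direction went from 16.1, 23.1 and 22.5% to 4.03, 10.1 and 10.0%. With only the 2 groups compared, 4 were called at day 7 against day 0 (18.8% of all genes), with Il33 and Il1rn added, and 1 at day 14 against day 7 (5.92%), and without the filter 1 was called at day 14 against day 7 (3.90%). Among libraries with a mitochondrial share under 2.5%, 4 were called at day 7 (12.8% of all genes), with Il33 and Il1r2 added. With each library left out in turn, the counts against day 0 were 2 to 3, 3 to 4 and 3 to 3. They stood beside 11.8 to 16.5, 19.6 to 23.7 and 18.8 to 21.4% of all genes. Without day 0 replicate 1, Il18r1 was among those called at day 21. Between the later days the counts were 0 to 0 (14 against 7), 1 to 2 (21 against 7) and 0 to 1 (21 against 14). The shares of all genes there were 1.95 to 7.47, 5.42 to 10.2 and 0 to 0.73%. Il18 was also called at day 21 against day 7 without day 21 replicate 2. Il33 was called at day 21 against day 14 without day 14 replicate 1. Il1b remained called at days 7 and 21, and Il1r1 at days 14 and 21, under every alternative run. Il1b lost its call at day 14 among libraries with a mitochondrial share over 3.5% (adjusted p = 0.0819). Il1r1 at day 7 lost it with glmTreat. Il33 at day 21 was called under 13 of 18 alternatives, Il1rn at day 21 under 10 of 18 and Il18r1 at day 14 under 17 of 20, and Il1rn at day 14 lost its call with glmTreat. Same-numbered libraries deviated together in 8 of 21 pairs (r over 0.1), with r from -0.24 to 0.40 over all of them. No share of differently numbered pairs was set beside this, so it cannot decide whether the numbers pair the libraries. With a replicate block the counts against day 0 were 2, 4 and 3, since Il1rn lost its call at day 21, beside 16.7, 23.6 and 21.5% of all genes. Between the later days (14 against 7, 21 against 7 and 21 against 14) they were 0, 1 and 0, beside 6.78, 9.46 and 0%.

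Directions turned for 19 values, all of them log2 fold changes that were not called. With limma voom these were Il1a at day 7 (-0.012) and Il18 at day 21 (-0.093), with the replicate block Il18 at day 21 (-0.0065), and among libraries with a mitochondrial share over 3.5% Il1r2 (0.50), Il18 (-0.052) and Il33 (0.50) at day 14. The others came from leaving out a library. Values then ran from -0.18 to 0.47 for Il1a at day 7, from -0.76 to 0.31 for Il1r2 and from -0.43 to 0.27 for Il33 at day 14, and at day 21 from -0.23 to 0.078 for Il1a, from -0.28 to 0.030 for Il1rap and from -0.19 to 0.40 for Il18. The cause of these shifts was not tested. Of the pathway genes, Cxcl1 at day 7 was called under 14 of 20 alternatives, Il1rl2 at day 7 under 15 of 20 and Il6 and Il18bp at day 21 under 13 of 18. Among libraries with a mitochondrial share over 3.5%, Il36g (-0.75) and Il1rl2 (0.55) lost their calls at day 14.

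Limits. Il1a had 18 to 90 counts per library and standard errors of 0.45 to 0.49 on the log2 scale. All day 7 libraries had a low mitochondrial share, so a comparison of day 7 with day 0 at a like share rests on 2 day 0 libraries. The day 21 libraries held 2.66 to 4.01%, above all day 7 libraries at 2.03 to 2.15%. Day 21 against day 7, the comparison in which Il33 was called, therefore has no libraries of a like share. Counting does not separate isoforms, and whether it separates strands is not given in the sources used here.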
